A study of Mus musculus with 8 samples.

Results

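The p200 genes are a cluster of interferon-inducible genes on mouse chromosome 1, and 7 of them, AI607873, Ifi203, Ifi204, Ifi205, Mnda, Aim2 and Pyhin1, are described here across 4 states of cultured myeloid progenitors. All 7 symbols were found among the 34199 genes of the count tables, and all 7 passed the filter on low counts that left 13080 genes. The family was chosen by measured values of these same libraries: AI607873 had already stood among the genes with the highest fitted fold change after HOXA9 inactivation. Differences of the members between states are therefore given as a description, with no p-value, and a filter that genes can pass through their high group alone adds no support.

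The cells were immortalized granulocyte-macrophage progenitors (iGMPs) from C57Bl/6 mice, carrying HOXA9 fused to an estrogen receptor together with the Lys-GFP reporter, and every state shared both. In the uninduced state the cells were kept in stem cell factor and 150 ng/ml estradiol, which holds HOXA9 active, and were taken at 0 h. HOXA9 OFF cells had been washed and cultured without estradiol for 48 h. CAF-1 OFF cells had received 500 micromolar IPTG for 48 h to express an shRNA against Chaf1b, a subunit of the histone chaperone CAF-1. Per the study's methods, these cells stayed in estradiol while IPTG was added, though their labels leave estradiol blank. The IPTG-treated control also received IPTG for 48 h. Its concentration, estradiol and vector are not in the labels, while the study's methods describe clonal lines with a spacer sequence in place of the shRNA. Each state had 2 libraries, and since the labels tie no library to a clone or culture, although the supplement mentions independent sub-clones for the sequencing, the p-values given for other genes measure the spread between libraries only. Estradiol withdrawal also acts on a receptor fusion in transduced, clonal lines, which limits the states as models of primary progenitors.

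p200 proteins carry a DNA-binding HIN domain, and many also carry a pyrin domain that joins them to signalling partners. Type I and type II interferons induce most of the family, and several members are best known from macrophages and other myeloid cells. AIM2, the most studied, binds DNA in the cytosol and assembles an inflammasome with the adaptor PYCARD and the protease caspase-1, while Ifi204 is related to human IFI16 and Mnda is named after the human myeloid nuclear differentiation antigen.

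In the mm9 genome used by the count tables, the members lay within 680.9 kb of chromosome 1, between bases 175281010 and 175961886, together with 7 further loci of the family. Aim2 stood at one end on the plus strand (chr1:175281010-175396171) and Ifi205 at the other on the minus strand (chr1:175942129-175961886). Pyhin1 (chr1:175560990-175578059) was also on the plus strand, whereas AI607873 (chr1:175653814-175671878), Ifi204 (chr1:175677424-175697050), Mnda (chr1:175826486-175843053) and Ifi203 (chr1:175850538-175872803) were on the minus strand. RefSeq lists AI607873 as Ifi207, Mnda as Ifi211 and Pyhin1 as Ifi209. The annotated span of the related gene Mndal enclosed Mnda and overlapped most of Ifi203, although its exons shared only 37 bases with those of Ifi203 and none with those of Mnda.

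The sequence just before each RefSeq start is shown because the motif marked in it was found in some members and not in others. RefSeq promoter entries (GRCm38.p6) were found for 6 of the 7 members, all but Ifi204, and each matched mm9 chromosome 1 exactly once. Capitals mark GAAANNGAA, the core that interferon regulatory factors recognise, searched on both strands of the 250 bases before the start. Each sequence runs 5′ to 3′ on the gene's own strand over 150 bases, except that of Aim2, which stops at the first base of an annotated exon. The RefSeq start used for Aim2 is not that of the span given above: its window ended 69724 bases inside that span, and the first window of Mndal lay 62303 bases inside its own. For the other members the offset was at most 179 bases.
AI607873, chr1:175671941-175672090, minus strand: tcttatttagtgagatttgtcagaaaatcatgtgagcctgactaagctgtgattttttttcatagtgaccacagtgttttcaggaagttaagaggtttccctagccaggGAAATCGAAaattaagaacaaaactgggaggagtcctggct
Mnda, chr1:175843178-175843327, minus strand: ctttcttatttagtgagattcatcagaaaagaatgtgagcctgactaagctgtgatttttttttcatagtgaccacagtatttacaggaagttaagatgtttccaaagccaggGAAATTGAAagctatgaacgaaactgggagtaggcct
Ifi203, second listed start, chr1:175872624-175872773, minus strand: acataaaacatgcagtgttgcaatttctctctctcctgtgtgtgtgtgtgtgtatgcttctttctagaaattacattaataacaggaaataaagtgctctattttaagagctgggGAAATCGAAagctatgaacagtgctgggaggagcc
Ifi205, chr1:175961887-175962036, minus strand: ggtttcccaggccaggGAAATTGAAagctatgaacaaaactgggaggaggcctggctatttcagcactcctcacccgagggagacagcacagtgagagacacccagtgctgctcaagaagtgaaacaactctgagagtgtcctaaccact
Pyhin1, chr1:175560840-175560989, plus strand: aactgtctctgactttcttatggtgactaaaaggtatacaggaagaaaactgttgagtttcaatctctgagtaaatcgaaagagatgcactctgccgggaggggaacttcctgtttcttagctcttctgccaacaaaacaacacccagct
Aim2, chr1:175350585-175350701, plus strand: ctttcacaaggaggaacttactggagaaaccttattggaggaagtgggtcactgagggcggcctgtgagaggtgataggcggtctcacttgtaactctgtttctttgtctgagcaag

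The core was found in 4 of the 6 members with an entry: from base -41 to -33 in AI607873, from -37 to -29 in Mnda, from -35 to -27 before the second start of Ifi203, and from -134 to -126 in Ifi205, counted back from the start. All 4 matches lay on the gene's own strand. Of the other family genes, 4 of 5 with an entry also held it (Gm4955, Pydc3, Pydc4 and Mndal, but not Ifi202b). Of all 27025 genes with a promoter entry, 7.16% held the letters in the first one listed, and by that same rule 3 of the 6 members did. The letters were absent from the windows of Aim2 and Pyhin1, which says nothing of whether such a factor acts on them. A PU.1-type motif, GAGGAAG, was found in Aim2 alone among the members (from -113 to -107; 10.4% of all promoters). Neither TTGCNNAA, a C/EBP-type motif (9.55% of all), nor TTCNNNGAA, a STAT-type motif (7.18%), was found in any member. Among the other family genes, Gm4955, Pydc3, Pydc4 and the second listed start of Mndal held the C/EBP-type letters, and Ifi202b the STAT-type ones. TATAAA (13.0% of all) was found before Pyhin1 only among the members, upstream of the stretch shown and on the opposite strand. It was also found before Gm4955, Pydc3 and Pydc4. No matches in the members overlapped. A match is a run of letters, not a bound site, and paralogs share their ancestry, so the matches are not independent of each other.

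The paralogs also share coding sequence, and this bears on every count. One run of 108 bases, from coding base 235 to 342, was the same in AI607873, Ifi204 and Mnda and is shown because a read inside it belongs to 3 members at once.
AI607873, Ifi204 and Mnda: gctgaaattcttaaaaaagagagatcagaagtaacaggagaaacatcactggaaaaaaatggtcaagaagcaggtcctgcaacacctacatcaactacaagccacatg
Longer runs joined pairs of genes, with 223 bases common to Ifi204 and Mnda, 253 to Pyhin1 and BC094916, and 495 to Mnda and Ifi205. Of all 50-base windows in the transcripts, 99.8% were found in no other gene for Aim2, 97.3% for Ifi203 and 95.4% for AI607873. The share fell to 71.1% for Ifi204, 64.0% for Pyhin1, 50.5% for Ifi205 and 21.1% for Mnda. HTSeq by default leaves out reads with several alignments, though the setting used is not stated, so the levels of Mnda and Ifi205 may rest on a smaller part of their transcripts than that of Aim2.

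Library totals ran from 14044284 to 22423837 counts over genes, so 3 counts, the limit that a count of 0 allows, corresponded to 0.128 to 0.212 CPM (counts per 1e6 counts of a library). These limits and all intervals cover counting error only. CPM were scaled with TMM factors, which correct for differences in RNA composition, and the biological coefficient of variation was 18.9%. Chaf1b, the target of the shRNA, was measured at 96.8 and 100.2 CPM in the uninduced libraries, at 18.7 and 9.71 CPM in CAF-1 OFF and at 48.3 and 41.0 CPM in HOXA9 OFF. Its level in CAF-1 OFF was 6.94-fold lower than in the uninduced state (FDR = 0.00236, edgeR quasi-likelihood test), and in HOXA9 OFF it was 2.21-fold lower (FDR = 0.00574). The progenitor markers fixed for these cells (Cd34, Flt3, Kit, Mpo, Elane and Ctsg) were all detected in every state.

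Before induction only Aim2 was abundant. It stood at 41.5 and 37.0 CPM in the uninduced libraries, at 42.1 and 40.8 CPM in the IPTG-treated controls, and made up 95.2% (95% Wilson interval, 93.7 to 96.4) and 95.4% (93.8 to 96.6) of all member counts in the uninduced libraries. Without Aim2, the other 6 members together reached only 1.55 to 2.09 CPM in the 4 libraries of the 2 control states. Pyhin1 was measured at 1.82 and 0.77 CPM in the uninduced libraries and Ifi204 at 0.133 and 0.855 CPM. Ifi203 had 3 counts in each uninduced library. AI607873 and Ifi205 had none in either, and Mnda had 1 count in replicate 2. Per kb of exon, mean levels in the uninduced state were 11.2 ± 0.894 CPM for Aim2, 0.371 ± 0.213 for Pyhin1 and 0.209 ± 0.216 for Ifi204 (SD, n = 2). Aim2 thus stood apart, while Pyhin1 and Ifi204 did not differ beyond their spread.

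**Figure D1:**
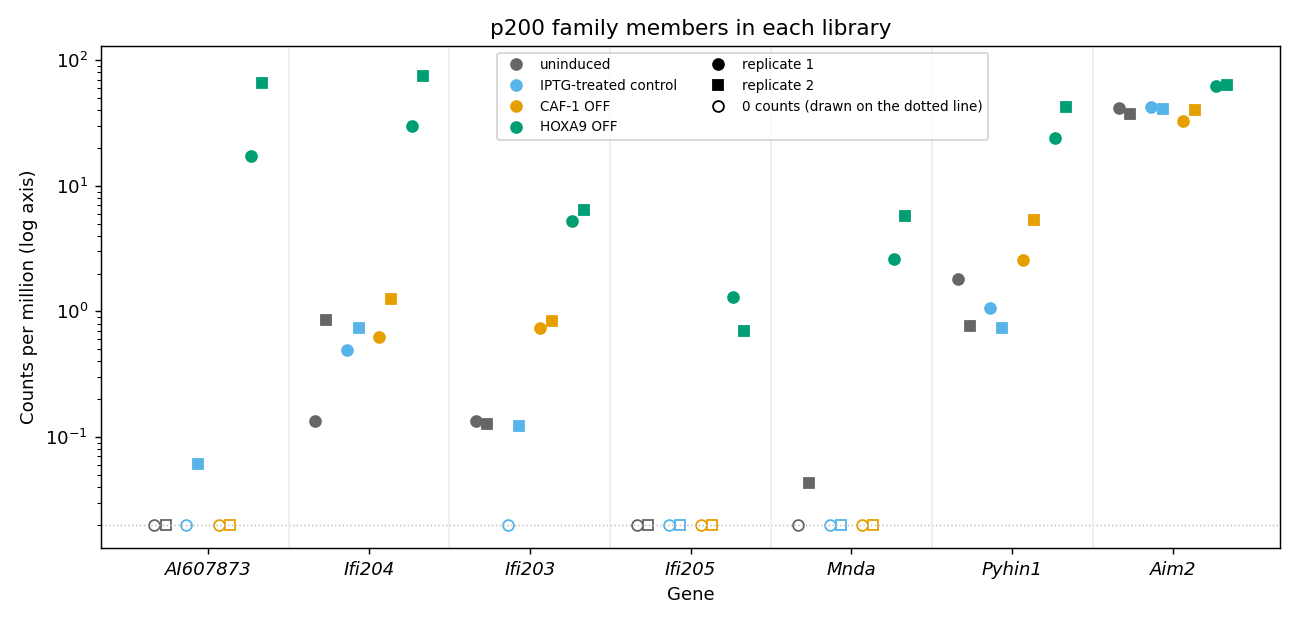
Level of each p200 member in each of the 8 libraries, in CPM on a log axis, with circles for replicate 1, squares for replicate 2 and open symbols on the dotted line for 0 counts. The HOXA9 OFF libraries are the highest for all 7 genes, and Aim2 is the only member above 6 CPM in any other state.

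HOXA9 inactivation came with higher levels of every member, but from very different starting points. AI607873 went from 0 counts in both uninduced libraries to 320 and 1318 counts, or 17.4 and 65.3 CPM. That is at least 309.7-fold higher, taking 3 counts in the smaller uninduced library as the floor. The HOXA9 OFF libraries themselves differed 3.76-fold, so the mean of 41.3 CPM carried an SD of 33.9 (n = 2).

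Ifi204, the IFI16-related gene, rose in the same way, to 29.9 and 75.4 CPM from 0.133 and 0.855 CPM. Its fitted log2 fold change was 6.70 (SE 0.76), or 106.5-fold between the group means, and ran from 5.89 without HOXA9 OFF replicate 2 to 8.55 without uninduced replicate 2. Pyhin1 was measured at 24.1 and 42.6 CPM, 25.7-fold above the uninduced mean (log2 fold change 4.68, SE 0.55; 5.42 without uninduced replicate 1). For both genes the HOXA9 OFF libraries lay far above all 6 other libraries.

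The less abundant members followed. Ifi203 reached 5.21 and 6.39 CPM (44.3-fold; log2 fold change 5.40, SE 0.58). Mnda reached 2.6 and 5.75 CPM, and against the single uninduced count the ratio was 194.8 with a 95% counting interval from 34.5 to 7739.6. Ifi205 had 24 and 14 counts, or 1.3 and 0.694 CPM, at least 7.48-fold above the floor. None of these overlapped the uninduced libraries, and 39.2% of all tested genes were likewise higher in HOXA9 OFF with no overlap. Mnda and Ifi205 were counted on the least unique sequence of the family.

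Aim2, already present, changed the least. Its level was 61.9 and 63.9 CPM in HOXA9 OFF, a mean of 62.9 ± 1.37 against 39.2 ± 3.13 in the uninduced state (SD, n = 2), 1.6-fold higher with a log2 fold change of 0.68 (SE 0.13). The groups did not overlap. Scaled by library size alone, which moves the median of all genes in this comparison from 0.01 to -0.18 on the log2 scale, the log2 fold change of Aim2 was 0.49, below 1.5-fold.

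All 7 members passed the call rule of an FDR under 0.05 and at least 1.5-fold upward in HOXA9 OFF against uninduced, as did 25.2% of all tested genes, with 22.1% of genes called lower. Scaled by library size alone, the split over all genes turned from 3293 higher and 2886 lower to 2715 higher and 3701 lower. Because the members were picked with this contrast in view, nothing is read from that count. Their median fitted log2 fold change was 6.70, or 5.40 with the 2 genes at 0 set to their bounds, against a median of 0.01 over all genes.

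The make-up of the family thus differed between the states. Per kb of exon, the means in HOXA9 OFF were 22.3 ± 13.6 CPM for Ifi204, 17.9 ± 0.391 for Aim2, 12.5 ± 10.3 for AI607873 and 9.54 ± 3.73 for Pyhin1 (SD, n = 2). Neighbours among these 4 did not differ beyond their spread. Mnda (2.53 ± 1.35), Ifi203 (0.865 ± 0.125) and Ifi205 (0.619 ± 0.266) came next, and Ifi203 and Ifi205 did not differ beyond their spread either. Levels per kb used all exon bases, whether or not other genes share them. Only 21.1% of windows for Mnda, 50.5% for Ifi205 and 64.0% for Pyhin1 were found in no other gene. Ifi203 was divided by 6.706 kb of exon, though its longest transcript has 3754 bases. How far this order rests on these lengths was not tested. Aim2 accounted for 43.5% (41.6 to 45.4) and 24.6% (23.4 to 25.8) of member counts in the 2 HOXA9 OFF libraries.

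**Figure D2:**
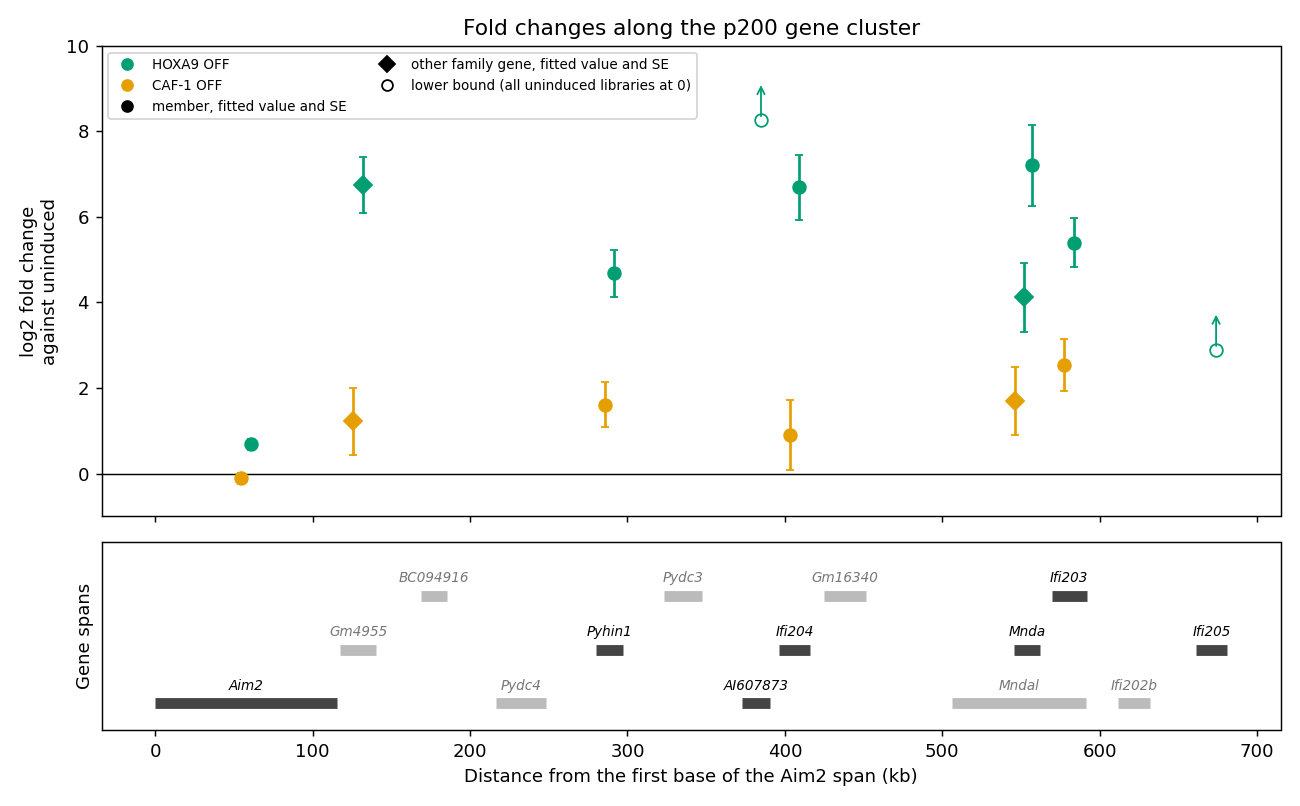
Upper panel, log2 fold change against uninduced for the tested genes of the cluster in HOXA9 OFF and CAF-1 OFF, with bars for the standard error and open symbols with arrows for lower bounds; lower panel, spans of the 14 family loci in kb from the start of the Aim2 span. In HOXA9 OFF the genes from Gm4955 to Ifi205 lie above Aim2 at the left edge (0.68), and in CAF-1 OFF no gene exceeds the 2.53 of Ifi203; the point of Mnda rests on 1 uninduced count, and AI607873, Mnda and Ifi205, at or under the floor in both groups, have no CAF-1 OFF point.

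In CAF-1 OFF only Ifi203 and Pyhin1, 2 of the 7 members, lay above all 4 control libraries, as did 30.8% of all tested genes. Ifi203 had 14 and 16 counts in CAF-1 OFF, or 0.736 and 0.836 CPM, against 3 counts in each uninduced library. This was a 6.01-fold difference (log2 fold change 2.53, SE 0.61). Against the IPTG-treated controls, with 0 and 2 counts, the ratio was 12.0 with a 95% counting interval from 3.04 to 103.4 (log2 fold change 3.47, SE 0.74). Without IPTG-treated control replicate 1 that log2 fold change was 2.60, and without its replicate 2 it was 6.95. The levels were still 7.38-fold below those of HOXA9 OFF.

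Pyhin1 was measured at 2.58 and 5.33 CPM in CAF-1 OFF, and the highest control library had 1.82 CPM. The log2 fold change was 1.61 (SE 0.52) against uninduced and 2.14 (SE 0.57) against the IPTG-treated control, or 4.4-fold, and only the second passed the call rule. Without CAF-1 OFF replicate 2 these values were 0.99 and 1.52, and without uninduced replicate 1 the first was 2.35. Pyhin1 shares 1226 of its 3448 windows with BC094916, which had no counts in CAF-1 OFF.

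The other members did not lie above the controls. Ifi204 was measured at 0.631 and 1.25 CPM in CAF-1 OFF, overlapping both the uninduced libraries and the IPTG-treated controls (0.494 and 0.736 CPM). No read was counted for AI607873, Mnda or Ifi205 after CAF-1 loss in either library, which allows up to 0.158 and 0.157 CPM. Aim2 was measured at 32.6 and 40.1 CPM, with a log2 fold change of -0.11 (SE 0.13) against uninduced and -0.19 (SE 0.13) against the IPTG-treated control, and its CAF-1 OFF libraries overlapped the uninduced ones but lay just below the IPTG-treated controls.

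Against uninduced, 1 member (Ifi203) was called higher in CAF-1 OFF and none lower, beside 10.5% and 3.5% of all tested genes. Against the IPTG-treated control, 2 members (Ifi203 and Pyhin1) were called higher and none lower, beside 9.56% and 3.2% of all genes. Whether these members passed the call rule depended on single libraries. Without uninduced replicate 1, uninduced replicate 2, CAF-1 OFF replicate 1 or CAF-1 OFF replicate 2, the first count was 0, although the log2 fold change of Ifi203 stayed between 2.44 and 2.59 with any 1 library left out. The second was 0 without CAF-1 OFF replicate 2 or IPTG-treated control replicate 1, and 1 without CAF-1 OFF replicate 1 or IPTG-treated control replicate 2. Leaving out either HOXA9 OFF library brought the first count to 2.

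No member was called between the IPTG-treated control and the uninduced state, where 0.0% of all tested genes were called by the edgeR test (100 had an unadjusted p under 0.05; the DESeq2 Wald test called 5, with 43 genes at an unadjusted p under 0.05). Aim2 differed by 0.08 on the log2 scale (SE 0.13) and Ifi204 by 0.31 (SE 0.90). Ifi203, with at most 3 counts in any of the 4 libraries, was the one member whose groups did not overlap, which in either direction held for 18.3% of all tested genes.

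Set directly against HOXA9 OFF, every member was lower in CAF-1 OFF and none overlapped, and 37.4% of all tested genes were likewise lower with no overlap. The difference was at least 261.9-fold for AI607873, 55.8-fold for Ifi204, at least 26.5-fold for Mnda, 8.44-fold for Pyhin1 and 7.38-fold for Ifi203. It was at least 6.32-fold for Ifi205 and 1.73-fold for Aim2 (log2 fold change -0.79, SE 0.13, and -0.56 with library size alone). The bounds use the mean of the HOXA9 OFF libraries, which differed 3.76-fold for AI607873, 2.21-fold for Mnda and 1.88-fold for Ifi205. For Ifi204 the fitted log2 fold change of -5.79 ran from -6.36 without CAF-1 OFF replicate 2 to -4.99 without HOXA9 OFF replicate 2, and for Pyhin1 that of -3.07 ran from -3.69 to -2.62 without the same libraries. All 7 were called lower, as were 21.4% of all tested genes, while 22.2% were called higher. That even split, 2898 genes higher and 2797 lower, became 3949 and 2064 by library size alone, which moves the median of all genes from 0.04 to 0.27 on the log2 scale. The comparison shares its HOXA9 OFF libraries with the one against uninduced, so these comparisons are not independent views of the same genes.

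**Figure D3:**
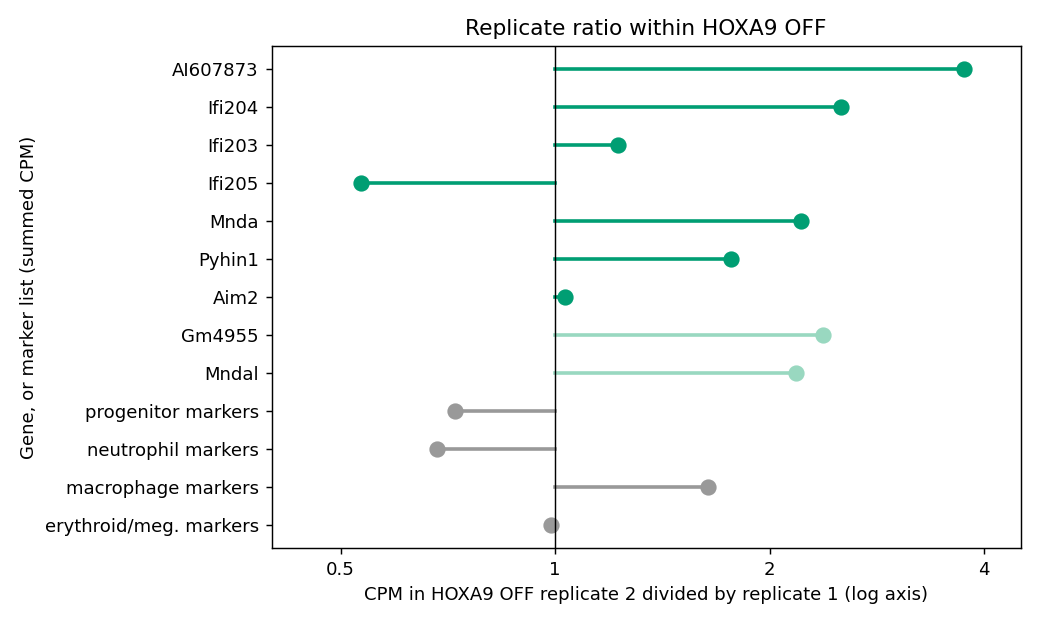
Level in HOXA9 OFF replicate 2 divided by that in replicate 1, on a log axis, for the 7 members, for Gm4955 and Mndal, and for the summed CPM of 4 marker lists. AI607873 (3.76) and Ifi204 (2.52) differ most, Aim2 (1.03) hardly differs, and Ifi205 (0.53) goes the other way. The macrophage list stands at 1.64. The neutrophil list stands at 0.68, beside 0.67 in the uninduced and 0.65 in the IPTG-treated control libraries, which are not drawn.

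The HOXA9 OFF libraries were both high for each member but differed in level. Replicate 2 held 3.76 times the AI607873 level of replicate 1, 2.52 times that of Ifi204, 2.21 times that of Mnda and 1.76 times that of Pyhin1. Ifi203 (1.23 times) and Aim2 (1.03 times) were close, and Ifi205 was lower in replicate 2 (0.53 times). Over all tested genes, the log2 difference between these libraries had its 5th and 95th percentiles at -0.70 and 1.23, and AI607873 at 1.91 and Ifi204 at 1.33 lay above that range and Ifi205 at -0.82 below it.

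Interferon-stimulated genes that are not p200 members differed between the same libraries in the same direction. Of 29 tested, 28 were higher in replicate 2, with a median log2 difference of 1.01 against -0.04 over all tested genes, of which 45.1% were higher. Oasl2 was measured at 30.5 and 105.9 CPM (3.47 times) and Ifi27l2a at 4.56 and 14.1 CPM (3.1 times). The interferon signalling list (median 0.13, 12 of 19 higher) and the DNA sensing list (0.08, 10 of 16) differed less.

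The summed macrophage markers, though not each of them, were higher in replicate 2. Emr1, Csf1r, Cd68, C1qa, C1qb and Mrc1 together summed to 1007.8 CPM in HOXA9 OFF replicate 1 and 1651.2 CPM in replicate 2, against 27.0 to 79.3 CPM in the 6 other libraries. Within that list C1qb, a complement component of macrophages, was measured at 0.434 and 120.7 CPM and Cd68 at 47.2 and 234.1 CPM. Emr1 went the other way, at 493.3 and 436.2 CPM, while C1qa was at 0 in replicate 1 and in all other states. Neutrophil markers (Ltf, Camp, Ngp, S100a8, S100a9 and Mmp9) were lower in replicate 2, at 7402.3 and 5047.3 CPM in the 2 HOXA9 OFF libraries against 5.13 to 81.8 CPM in the others. The 6 progenitor markers stood at 5736.3 and 4152.1 CPM, against 9717.5 to 14693.3 CPM in the others. Mpo made up most of that sum (3623.1 and 2557.3 CPM), and Elane, at 738.1 and 431.9 CPM against 461.6 and 260.0 CPM in the uninduced libraries, did not share the lower level. Lower levels in replicate 2 were not particular to HOXA9 OFF. For the neutrophil list, replicate 2 over replicate 1 was 0.68 there, 0.67 in uninduced, 0.65 in IPTG-treated control and 1.58 in CAF-1 OFF libraries. For the progenitor list it was 0.72, 0.74, 0.79 and 0.99 in the same order, and for the macrophage list 1.64, 0.52, 0.5 and 1.57. In HOXA9 OFF the 7 lymphoid markers, of which Cd3e, Cd3g and Ncr1 were at 0, stood at 3.96 and 8.82 CPM. Summed over 5 erythroid and megakaryocyte markers, the level was 116.1 and 114.4 CPM, with Hba-a1 and Hbb-b1 at 0. These even sums held opposite differences, since Pf4 was at 1.25 and 20.8 CPM, 16.7 times higher in replicate 2 and further apart than any member, and Itga2b at 114.2 and 93.2 CPM. The part of any cell type in the p200 levels was not tested, and in bulk RNA more cells of a type and more RNA per cell cannot be told apart. In CAF-1 OFF the macrophage list stood at 50.4 and 79.3 CPM against 53.8 and 27.7 CPM in the uninduced libraries, the neutrophil list at 51.7 and 81.8 CPM against 7.7 and 5.13 CPM, and the lymphoid list at 16.2 and 16.1 CPM against 2.4 and 2.44 CPM. Nearly all of that last sum was 1 gene, Cd79a (15.5 and 15.3 CPM against 2.09 and 2.27 CPM), while Cd3e, Cd3g and Ncr1 were at 0 and Ms4a1 had 1 count in replicate 1 and none in replicate 2. The erythroid and megakaryocyte list stood at 165.8 and 200.2 CPM against 18.4 and 22.0 CPM, nearly all of it from the megakaryocyte genes Pf4 (55.7 and 124.3 CPM) and Itga2b (109.0 and 74.5 CPM), while the erythroid factor gene Klf1 was at 1.05 and 1.36 CPM against 0.845 and 1.37 CPM.

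Of 15 further p200 and pyrin-HIN names listed, 7 were found in the files. Gm4955 (Ifi206 in RefSeq) was measured at 8.79 and 20.9 CPM in HOXA9 OFF against 0.178 and 0.0855 CPM in the uninduced libraries, 112.5-fold higher (log2 fold change 6.75, SE 0.66, FDR = 0.000106, edgeR quasi-likelihood test; 6.00 without HOXA9 OFF replicate 2). Mndal, whose span encloses Mnda and overlaps Ifi203, stood at 6.02 and 13.1 CPM against 0.4 and 0.684 CPM (log2 fold change 4.12, SE 0.81, FDR = 0.00327, edgeR; 3.46 without HOXA9 OFF replicate 2). Both sit among the members in the cluster, and Gm4955 shares its windows with Pydc3 and Pydc4 rather than with any member. Mndal shares 296 of its 1858 windows with Mnda, 262 with Ifi205, 191 with Ifi204 and 108 with Ifi203, and 1338 were found in no other gene, so its counts are not wholly separate from theirs.

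In CAF-1 OFF neither passed the test. Gm4955 was measured at 0.21 and 0.418 CPM (FDR = 0.298 against uninduced, edgeR), and Mndal at 3.05 and 0.522 CPM (FDR = 0.165), of which the second library lies within the uninduced range. Against HOXA9 OFF, Gm4955 was lower by 5.53 on the log2 scale (SE 0.61, FDR = 0.000253, edgeR; -4.79 without HOXA9 OFF replicate 2). Mndal was lower by 2.42 (SE 0.73, FDR = 0.0248), a call that was lost when CAF-1 OFF replicate 2 (FDR = 0.0637, edgeR) or HOXA9 OFF replicate 2 (FDR = 0.106) was left out or only the compared groups were fitted (FDR = 0.0745). The difference ran from -4.18 without CAF-1 OFF replicate 1 to -1.64 without its replicate 2. The 5 others were under the filter, and their few counts fell mostly in HOXA9 OFF. Pydc4 had 11 counts in each HOXA9 OFF library, BC094916 had 3 and 2, and Ifi202b had 1 in replicate 2, with none elsewhere. Pydc3 had 6 and 2 counts there and 1 in CAF-1 OFF, and the pseudogene Gm16340 had 3 and 8 there and 3 in CAF-1 OFF.

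Few genes around the cluster were expressed. Within 1 Mb of the members' span lay 40 further protein-coding genes, of which 20 were olfactory receptors, and 18 had any count and 7 were tested. None of the 7 was called in HOXA9 OFF against uninduced, with Dusp23 closest (log2 fold change 0.56, SE 0.17, FDR = 0.0211, edgeR, under 1.5-fold). Dusp23 was called higher without HOXA9 OFF replicate 2 (FDR = 0.0376), and Igsf9 lower without either IPTG-treated control library (FDR = 0.0409 and 0.0448). Tagln2, an actin-binding protein gene, was measured at a mean of 533.3 CPM in HOXA9 OFF and 612.2 CPM in the uninduced state (FDR = 0.277, edgeR). In CAF-1 OFF, Ccdc19 (log2 fold change 2.82, SE 0.51, FDR = 0.0121, edgeR) and Spna1, the erythroid alpha-spectrin gene (3.40, SE 0.75, FDR = 0.0208), were higher than in the uninduced state, and both also passed the call rule against the IPTG-treated control and HOXA9 OFF. Both lost these calls under some alternatives. In the order uninduced, IPTG-treated control and HOXA9 OFF, the call of Spna1, at a mean of 0.524 CPM, was lost in 8 of 14, 11 of 13 and 6 of 14 alternatives (FDR up to 0.154, 0.26 and 0.183), including each omission of 1 library from the compared groups and the DESeq2 Wald test. With 1 library left out, its log2 fold change stayed between 3.37 and 3.42, 2.78 and 2.95, and 2.32 and 3.12. The call of Ccdc19 was lost in 3, 3 and 2 of 14 alternatives (FDR up to 0.113, 0.107 and 0.1), each time without CAF-1 OFF replicate 2, and also without either uninduced library, either IPTG-treated control library or HOXA9 OFF replicate 1 where these were compared. Igsf9 was higher in CAF-1 OFF than in HOXA9 OFF (log2 fold change 3.72, SE 0.88, FDR = 0.00891, edgeR), a call lost without HOXA9 OFF replicate 1 (FDR = 0.0507), and the phosphatase gene Dusp23 was lower (-1.05, SE 0.17, FDR = 0.00151).

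The pathway around the family was read from 3 lists that hold no member. Of 16 tested DNA sensing and inflammasome genes, 14 were called higher in HOXA9 OFF against uninduced and none lower, with a median log2 fold change of 2.41 against 0.01 for all genes. The other two were Irf3 (log2 fold change -0.04) and Ddx41 (-0.27, FDR = 0.0577, edgeR), named after their values were seen, and the HOXA9 OFF libraries of Ddx41 (63.7 and 66.8 CPM) lay below the uninduced ones (78.2 and 78.8 CPM). Zbp1, a sensor of Z-form nucleic acid, had the highest value, at 11.1 and 20.4 CPM against 2 counts and 0 counts in the uninduced libraries (ratio 365.8, 95% counting interval 100.8 to 3027.3; FDR = 7.26e-05, edgeR). Tlr9, the endosomal receptor for DNA, rose to 21.2 and 38.2 CPM from 0.89 and 0.641 CPM (5.27, SE 0.57, FDR = 0.000174, edgeR).

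Both partners of AIM2 were expressed before induction. They are named here after their values were seen, because the protein works through them. Pycard was measured at 66.9 and 52.9 CPM in the uninduced libraries and at 93.1 and 98.5 CPM in HOXA9 OFF (1.6-fold, FDR = 0.00351, edgeR), and fell under 1.5-fold without uninduced replicate 2 or scaled by library size alone. Casp1 rose from 38.3 and 42.1 CPM to 75.8 and 91.9 CPM (2.09-fold, FDR = 0.00107). In CAF-1 OFF, Pycard stood at 44.6 and 41.2 CPM and Casp1 at 24.5 and 33.1 CPM, both 1.4-fold lower than the uninduced mean (FDR = 0.0433 and 0.0787, edgeR) and under the 1.5-fold threshold. Without uninduced replicate 2, Pycard passed it as lower (FDR = 0.0455, log2 fold change -0.65).

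The interferon lists followed the same order. Of 19 tested interferon signalling genes, 18 were called higher in HOXA9 OFF and none lower, with a median log2 fold change of 1.79. The interferon genes Ifnb1 and Ifng, also on that list, were under the filter and are named after their values were seen. Ifnb1 had at most 1 count in any library and Ifng had 0 in each. Of 29 interferon-stimulated genes, 27 were called higher and none lower, with a median of 3.68. Ifit3, an antiviral gene, reached 15.7 and 33.5 CPM from 0 and 0.171 CPM (log2 fold change 8.04, SE 0.86, FDR = 0.000164, edgeR; 7.11 without uninduced replicate 1 and 11.83 without replicate 2), and the guanylate-binding protein gene Gbp2 reached 13.3 and 15.6 CPM from 2 counts and 0 counts (ratio 332.5, 95% counting interval 91.6 to 2752.7; FDR = 0.000177, edgeR). Macrophage and neutrophil markers were also higher in these libraries, as given above. The share of all tested genes called higher in this contrast was 25.2%.

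In CAF-1 OFF fewer genes of these lists were called. Against uninduced, 6 of 16 DNA sensing genes, 6 of 19 signalling genes and 16 of 29 interferon-stimulated genes were called higher and none lower, with median log2 fold changes of 0.01, 0.51 and 1.76, beside 10.5% of all genes called higher. With no fold threshold, 30 listed genes were higher and 2 lower, Pycard and the DNA sensor gene Ddx41 (log2 fold change -0.43, SE 0.1, FDR = 0.0266, edgeR), the latter named after its values were seen. Il1b, an inflammasome substrate, rose to 4.94 and 12.2 CPM from 0.623 and 0 CPM (log2 fold change 4.77, SE 1.05, FDR = 0.0205, edgeR; 3.77 without uninduced replicate 2 and 10.32 without replicate 1). The call was lost without uninduced replicate 2 (FDR = 0.0518) or CAF-1 OFF replicate 2 (FDR = 0.134). Zbp1 reached 1.68 and 2.56 CPM (ratio 48.7, 95% counting interval 13.0 to 408.8; FDR = 0.00649, edgeR). Gbp2 reached 1.32 and 3.6 CPM (ratio 56.5, interval 15.2 to 473.3; FDR = 0.00946, edgeR), and its call was lost without either uninduced library (FDR = 0.0565 and 0.0504) or CAF-1 OFF replicate 2 (0.0557).

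Against the IPTG-treated control the counts were again 6, 6 and 16, with the antiviral genes Ifit1 (4.69, SE 0.64, FDR = 0.00655, edgeR), Oasl2 (4.65, SE 0.89, FDR = 0.0155) and Oas2 (4.41, SE 0.76, FDR = 0.0124) in front. All 3 calls were lost without either IPTG-treated control library, with FDR from 0.052 to 0.0906 (edgeR), and those of Oasl2 (0.0967) and Oas2 (0.0679) also without CAF-1 OFF replicate 2. Between omission of IPTG-treated control replicate 1 and of replicate 2, the log2 fold changes ran from 4.20 to 5.52 for Ifit1, from 3.84 to 7.01 for Oasl2 and from 3.91 to 5.24 for Oas2. The total of 28 listed genes called against uninduced fell to 3 without uninduced replicate 1, to 12 without uninduced replicate 2 and to 7 without CAF-1 OFF replicate 2. Against the IPTG-treated control it fell from 28 to 5 without IPTG-treated control replicate 1 and to 7 without its replicate 2 or CAF-1 OFF replicate 2.

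**Figure D4:**
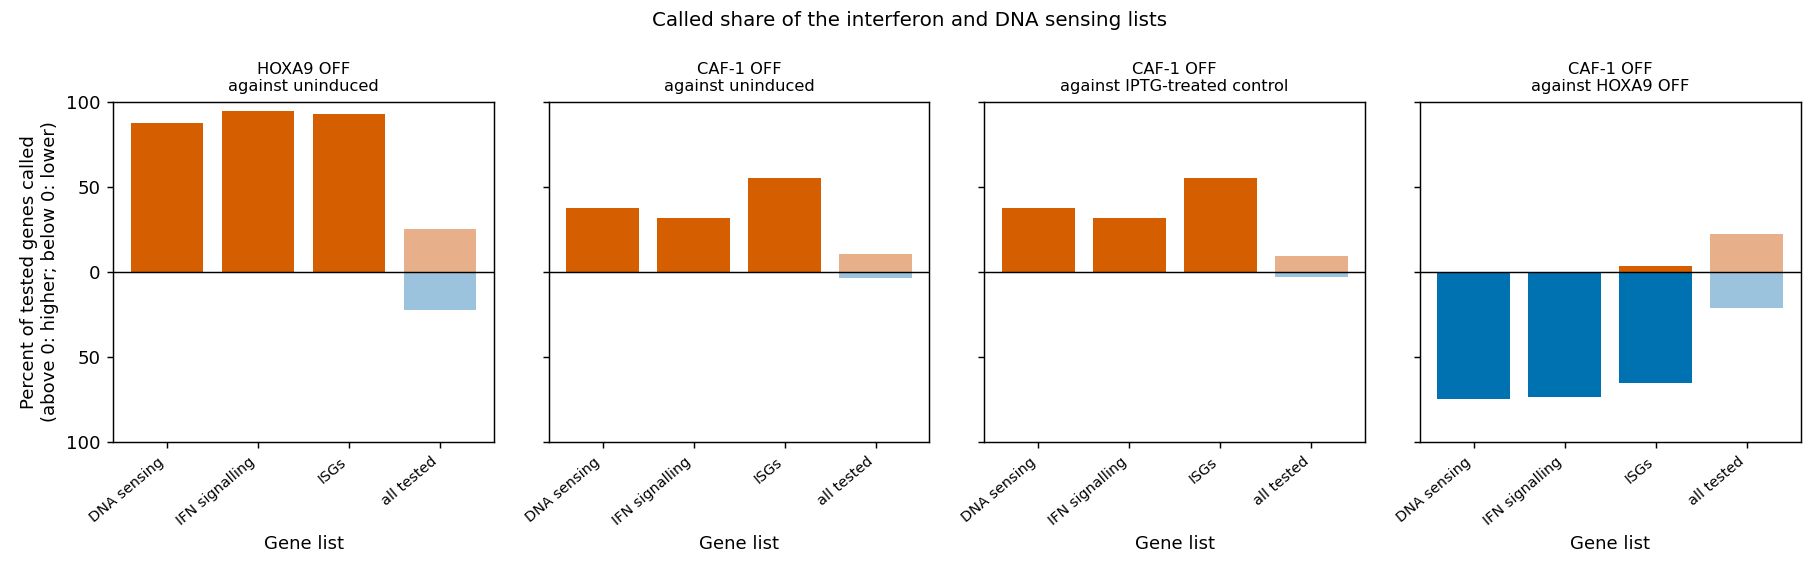
Percent of tested genes called in each comparison (FDR under 0.05 and at least 1.5-fold) for DNA sensing and inflammasome genes, interferon signalling genes, interferon-stimulated genes (ISGs) and all tested genes, with genes called higher in the first-named state above 0 and genes called lower below 0. In HOXA9 OFF 14 of 16, 18 of 19 and 27 of 29 were called higher, and in CAF-1 OFF against HOXA9 OFF 12, 14 and 19 were lower.

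Between the induced states, 12 of 16 DNA sensing genes, 14 of 19 signalling genes and 19 of 29 interferon-stimulated genes were lower in CAF-1 OFF, with medians of -1.56, -1.21 and -1.71 against 0.04 for all genes. The lowest were Ifit3 (log2 fold change -6.83, SE 0.79, FDR = 0.000331, edgeR), Ifi27l2a (-5.84, SE 0.92, FDR = 0.00133) and Tlr9 (-5.43, SE 0.59, FDR = 0.000238). Without CAF-1 OFF replicate 2 the value of Ifit3 was -7.78 and that of Tlr9 -6.78, without CAF-1 OFF replicate 1 that of Tlr9 was -4.75, and that of Ifi27l2a was -6.44 and -4.81 without HOXA9 OFF replicates 1 and 2. Without HOXA9 OFF replicate 2 that of Ifit3 was -6.20. Ifih1, the cytosolic RNA sensor MDA5, was the only listed gene called higher. It was measured at 77.9 and 135.3 CPM in CAF-1 OFF, 32.2 and 52.7 CPM in HOXA9 OFF and 17.5 and 17.9 CPM in the uninduced state (log2 fold change between the induced states 1.33, SE 0.31, FDR = 0.00844, edgeR), and its call was lost without CAF-1 OFF replicate 2 (FDR = 0.0592).

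To place each member among all genes, profiles over the 8 libraries were compared by the root mean square (RMS) difference of log2 CPM after centring each gene, as a description only. Only genes whose log2 CPM averaged 2 or more are named. For the members other than AI607873, 0 to 6 genes below that limit lay nearer than the first one named. Aim2 was nearest to Yeats4 (0.05) and Tbck (0.06), and Yeats4 was measured at 115.4 and 99.7 CPM in the uninduced libraries and 158.2 and 160.3 CPM in HOXA9 OFF. Ifi203 was nearest to Mocos (0.35) and Nlrp3 (0.36), of which Nlrp3, an inflammasome sensor gene, had levels of 20.8 and 35.9 CPM after CAF-1 loss and of 160.8 and 170.6 CPM in HOXA9 OFF against 3.69 and 7.57 CPM in the uninduced libraries. Pyhin1 was nearest to Apoc2 and Rasgrp4 (both 0.36).

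The order of the HOXA9 OFF libraries is part of the profile by which these genes were picked, so that they share it with their member is no result. Ifi204 was nearest to Ahnak (0.45), at 114.5 and 437.1 CPM in HOXA9 OFF, and to Clec4a3 (0.5). Mnda was nearest to AF251705 (0.43) and Lgals3 (0.44), the latter at 149.0 and 703.8 CPM. AI607873 had no close match above the limit, its nearest being Clec4a3 (1.11) and Mmp9 (1.15), and 32 tested genes below the limit lay nearer than Clec4a3. Ifi205 was nearest to C130026I21Rik (0.15) and Ccdc125 (0.2), at 102.3 and 78.0 CPM and at 176.3 and 99.2 CPM in HOXA9 OFF. All these points share libraries, and low counts compress the profiles of Ifi205 and Mnda.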

How the data were processed

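Per the labels and the study's methods, RNA was prepared with a Qiagen kit and an NEB RNA-seq kit, and the authors aligned reads to mm9 with STAR and counted them per gene with HTSeq. The deposited values are raw counts per gene symbol, 1 file per library, not normalized or pooled. Whether counting used the strand is not stated. The 5 HTSeq summary rows were kept out: ambiguous reads were 2.49 to 2.88% and reads in no gene 5.3 to 14.6% of a library's reads, taken over those in genes, ambiguous or in no gene.

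Groups came from the labels. The members and gene lists were chosen with earlier results of these data known. All 8 libraries entered 1 fit of edgeR 4.0.16 (R 4.3.3; TMM, filterByExpr, quasi-likelihood test, Benjamini-Hochberg FDR over 13080 genes), with no covariate. A call needed FDR under 0.05 and at least 1.5-fold. On counts simulated for CAF-1 OFF against uninduced (12745 genes), the fit found 87.9% of genes shifted by a log2 of 2 and 70% of those shifted by 1, and called 7 unshifted genes. In the simulated contrast between the control states, where no gene was shifted, it called 1. The simulated spread depended on expression level alone, with no gene-specific or clonal differences, so these shares may be too high for the real libraries. Counts of replicates differed beyond sampling noise in each group, so none were merged.

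Named were all members, all other family genes found, the called genes of the other lists at either end of each comparison (up to 3 by highest and 3 by lowest log2 fold change), the 2 genes nearest to each member (mean log2 CPM of at least 2), Chaf1b, the markers and called neighbours; others are said to be chosen later. A few listed markers are not reported here and enter no sum. Of the symbols, 97.1% matched GENCODE vM1 (mm9), which gave positions and exon lengths; promoters came from RefSeq (GRCm38.p6). Alternatives were other scalings, no filter or a minimum mean of 50 counts, the DESeq2 1.42.0 Wald test, a replicate block, only the compared groups, stricter calls (FDR under 0.01, at least 2-fold) and leaving out each library. Where a group had 1 library left, it was assumed to vary like the others.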

Additional observations from a re-analysis of the deposited data

How the results depend on the processing

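With 2 libraries a group, single libraries set many counts. Calls over all genes ran from 157 to 2191 in CAF-1 OFF against uninduced (1836 with all libraries) and from 199 to 1965 against the IPTG-treated control (1670), listed genes from 3 to 35 and from 5 to 34 (28 each), and p200 members from 0 to 2 in both, when 1 library was left out. Under the stricter call, these comparisons gave 364 and 282 genes, 13 and 8 listed genes and 0 members each. HOXA9 OFF against uninduced then gave 3579 of 6179 genes, 50 of 61 listed genes and 6 of 7 members. CAF-1 OFF against HOXA9 OFF gave 3008 of 5695 genes, 37 of 48 listed genes and 5 of 7 members. A mean of at least 50 counts left 4 members to call in both comparisons with HOXA9 OFF, 0 in CAF-1 OFF against uninduced and 1 against the IPTG-treated control, since the others were no longer tested. With no filter on low counts or with the DESeq2 Wald test, 2 members were called in CAF-1 OFF against uninduced, Pyhin1 joining Ifi203. DESeq2 called 5 genes between the controls, where edgeR called 0. In both comparisons with HOXA9 OFF, 6 members were called by library size alone (without Aim2) and 6 without HOXA9 OFF replicate 1 (without Ifi205, then under the filter). Among the members and the named genes that were followed, no called fold change changed direction under any alternative run. The split of all genes in HOXA9 OFF against uninduced did turn by library size alone, as given above. The other genes named with an FDR, apart from Ddx41 and Tagln2, were followed through the alternatives in every comparison but that between the control states. There 77 calls were lost and 4 gained, against 1033 that stayed on their side of the threshold. What depth limits is Ifi205, Mnda and AI607873 outside HOXA9 OFF and Ifi203 in both control states, on whose 0 to 3 counts its CAF-1 OFF calls rest, where 3 counts are 0.128 to 0.212 CPM.

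Same-numbered libraries deviated together in some pairs of groups only. The correlation of their deviations was 0.48 between uninduced and IPTG-treated control. It was 0.3 and 0.32 between HOXA9 OFF and these states. With CAF-1 OFF it was -0.04 for uninduced, -0.02 for the IPTG-treated control and 0.08 for HOXA9 OFF. The main fit took no pairs, so a standing difference between same-numbered libraries counts there as spread, and a replicate block was run as an alternative. With the replicate block, calls over all genes were 2123, 6313, 1932, 5839 and 0 for CAF-1 OFF and HOXA9 OFF against uninduced, CAF-1 OFF against the IPTG-treated control and against HOXA9 OFF, and the IPTG-treated control against uninduced. In the first 4, listed genes were 33, 61, 30 and 51, and members 1, 7, 2 and 7.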
